A study of Mus musculus with 10 samples.

Results

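Open chromatin regions of mouse retina that appeared only in the long ATAC-seq peak lists are described here beside the regions called in every list. ATAC-seq, which uses the Tn5 transposase to cut and tag open DNA, gave 4 peak lists, and the lists of control replicate 2 and Casz1 cKO replicate 1 were much longer than those of control replicate 1 and cKO replicate 2. The peaks of chromosomes 1 to 19 were merged where they shared at least 1 bp, and a merged region was kept when both long lists and neither short list called it. This gave 32609 of 116384 merged regions, 28.0% of all. They are called long-list-only regions below. Presence in the 4 lists chose them, so their pattern of calls and their peak widths are given as description and carry no test.

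The mice were of strain C57BL/6. For ATAC-seq, explants of retina from postnatal day 2 received plasmids for GFP alone (control, genotype given as wild type) or for GFP and Cre (Casz1 cKO, the conditional knockout of the zinc finger transcription factor Casz1), and after 2 days ex vivo 50000 viable GFP-positive cells were sorted per library, with 2 libraries per genotype. The sorted cells are those that took up plasmid, and no source used here gives the allele that Cre acts on. H3K27ac and H3K27me3 were measured by ChIP-seq in retina dissected at postnatal day 0, in a single library per genotype and mark (1 each); the cKO tissue was peripheral retina chosen by its fluorescence, and no source used here names the Cre driver. Marks and accessibility therefore came from different ages, from dissected tissue and sorted explant cells, and a comparison between them sets separate preparations side by side. The ATAC work was done on separate days, and no source used here tells which libraries shared a day. The deposited peak names carry the number 3 in both long lists, 1 in the list of control replicate 1 and 5 in that of cKO replicate 2. What this number stands for is not stated, and it cannot be told apart from list length. All libraries are bulk samples, in which fewer cells with an open site and weaker opening in every cell cannot be told apart.

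Accessible regions lie mostly at promoters, where transcription starts, and at enhancers, which act on promoters from a distance. H3K27ac is deposited by the acetyltransferases p300 and CBP at active promoters and enhancers. H3K27me3 is laid down by Polycomb repressive complex PRC2, above all at the CpG-rich promoters of developmental regulators that a tissue does not use. The retina just after birth holds progenitors that are still dividing and producing rods, bipolar cells and Müller glia, beside ganglion, amacrine, horizontal and cone cells born earlier.

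The promoter windows of 5 genes show the kinds of sequence that the regions met. Each is the RefSeq promoter window of GRCm38.p6 (the assembly called mm10), 250 bases before to 50 after a transcription start, written 5′ to 3′ on the strand of the gene, with every CpG in capitals. Atoh1 and Hoxa5 are shown as promoters under H3K27me3, Opn1sw and Gngt1 as photoreceptor promoters poor in CpG, and Sox2 as a contrast that meets a region called in all 4 lists.
Atoh1 (chr6:64728875-64729174, + strand): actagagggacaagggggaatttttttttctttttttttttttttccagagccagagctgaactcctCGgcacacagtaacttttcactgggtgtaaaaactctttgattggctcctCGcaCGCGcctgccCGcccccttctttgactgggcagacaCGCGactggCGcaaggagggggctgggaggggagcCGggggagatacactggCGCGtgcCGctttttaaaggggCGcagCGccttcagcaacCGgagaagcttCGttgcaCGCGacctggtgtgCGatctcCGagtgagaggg
Hoxa5 (chr6:52204538-52204837, - strand): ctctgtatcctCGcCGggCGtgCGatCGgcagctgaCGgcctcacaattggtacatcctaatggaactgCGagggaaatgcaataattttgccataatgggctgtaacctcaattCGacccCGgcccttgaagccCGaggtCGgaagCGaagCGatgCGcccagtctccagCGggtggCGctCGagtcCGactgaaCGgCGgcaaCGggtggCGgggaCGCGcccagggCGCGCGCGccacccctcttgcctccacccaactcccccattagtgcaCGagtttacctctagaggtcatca
Opn1sw (chr6:29380464-29380763, - strand): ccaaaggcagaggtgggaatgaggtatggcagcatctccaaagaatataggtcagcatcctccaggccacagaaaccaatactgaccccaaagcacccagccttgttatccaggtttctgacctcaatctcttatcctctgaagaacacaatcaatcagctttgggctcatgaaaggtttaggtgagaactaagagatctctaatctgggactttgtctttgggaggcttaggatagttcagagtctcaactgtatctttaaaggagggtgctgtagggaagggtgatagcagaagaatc
Gngt1 (chr6:3993758-3994057, + strand): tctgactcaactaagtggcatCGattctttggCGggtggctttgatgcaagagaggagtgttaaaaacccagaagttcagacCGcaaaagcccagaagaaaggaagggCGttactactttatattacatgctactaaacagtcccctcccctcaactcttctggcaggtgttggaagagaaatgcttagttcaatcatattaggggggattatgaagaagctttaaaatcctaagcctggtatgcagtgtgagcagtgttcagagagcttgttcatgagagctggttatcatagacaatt
Sox2 (chr3:34649745-34650044, + strand): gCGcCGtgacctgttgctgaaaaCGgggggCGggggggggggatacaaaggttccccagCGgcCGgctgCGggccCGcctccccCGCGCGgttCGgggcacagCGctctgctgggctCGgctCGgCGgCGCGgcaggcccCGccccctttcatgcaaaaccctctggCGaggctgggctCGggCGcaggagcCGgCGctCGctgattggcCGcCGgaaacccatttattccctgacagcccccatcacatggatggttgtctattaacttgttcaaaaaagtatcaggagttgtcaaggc

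Atoh1, a proneural factor of the hindbrain and inner ear, had 20 CpG in its window, and all 300 bases lay in a long-list-only region. Hoxa5, a Hox gene that sets position along the body axis, had 29 CpG, and 176 bases of its window lay in such a region. The window of Opn1sw, the short-wavelength cone opsin, held 0 CpG and that of Gngt1, the gamma subunit of rod transducin, held 4; a long-list-only region covered 279 and 300 bases of them. The Gngt1 window also holds GGATTA from base 207, the reverse complement of TAATCC, which is the core bound by the photoreceptor homeodomain factor CRX. The window of Sox2, a progenitor factor, held 27 CpG and lay whole in a region called in all 4 lists.

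Marker lists were compared by the number of genes with a region called in all 4 lists within 1 kb of a transcription start. This held for 23 of 23 retinal progenitor genes, 18 of 19 neurogenic progenitor genes and 20 of 23 Müller glia genes, against 12099 of 20665 protein-coding genes (58.5%). It held for 3 of 15 microglia and macrophage genes, 1 of 8 erythroid genes, 7 of 19 vascular genes and 1 of 18 liver and muscle genes. Among rod genes it held for 6 of 19, among bipolar and amacrine genes for 8 of 20 each, and among cone genes for 7 of 13. Ganglion cell genes had it at 12 of 20 and horizontal cell genes at 9 of 13. For pigment epithelium genes it was 6 of 15, for axon guidance and adhesion genes 27 of 32 and for housekeeping genes 17 of 18. The count thus did not separate retinal lists from the others.

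The control lists held 39636 peaks in replicate 1 and 108569 in replicate 2, and the cKO lists held 91931 in replicate 1 and 59574 in replicate 2. The long lists covered 59.8 and 51.6 Mb and the short lists 11.6 and 19.6 Mb. Each genotype thus had 1 long and 1 short list, and the long-list-only regions took 30.3% of the peaks of control replicate 2 and 35.8% of those of cKO replicate 1. They were nearly as many as the 32852 regions called in all 4 lists (28.2%). The opposite pattern, called in both short lists alone, was found at 200 regions. Patterns that follow genotype were also rare, with 145 regions in both control lists alone and 318 in both cKO lists alone. Control replicate 2 alone called 22348 regions, cKO replicate 1 alone called 6545, and both long lists with cKO replicate 2 called 17357. With cKO replicate 1 left out of the merge the rule kept 55535 regions, and with cKO replicate 2 left out it kept 49965. When every list was shortened to the same number of widest peaks, 6194 regions had the pattern.

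**Figure D1:**
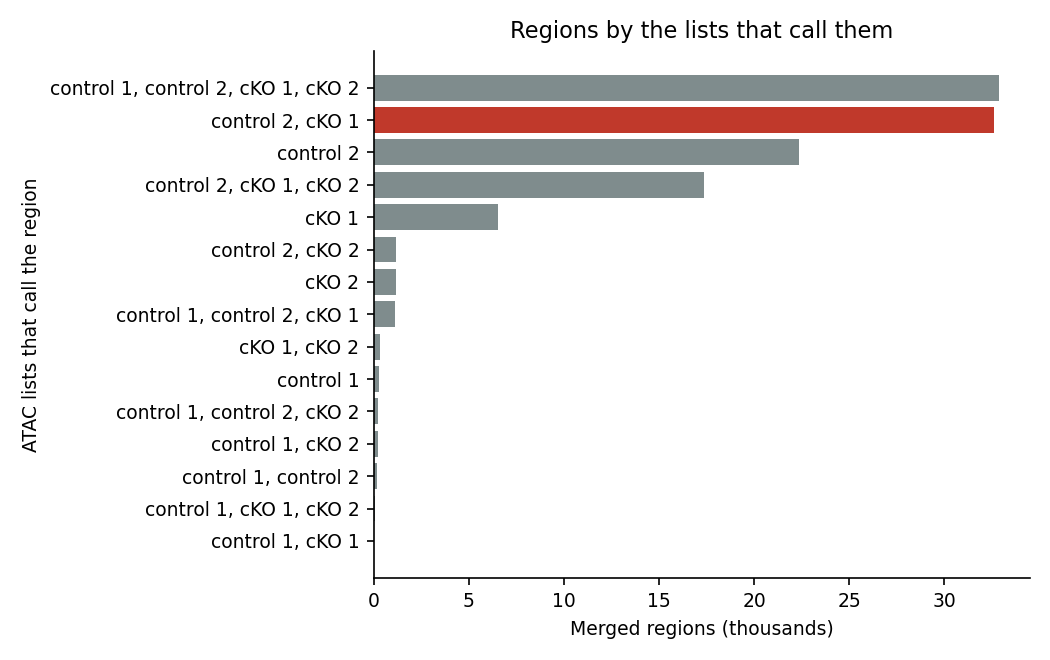
Number of merged regions for each combination of the 4 ATAC lists that called them. The red bar is the long-list-only pattern of 32609 regions, nearly as long as the bar of 32852 regions called in all 4 lists, while the patterns of 1 genotype alone hold 145 and 318.

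Long-list-only regions had narrow peaks. Their median peak width was 395 bp in control replicate 2, with quartiles of 282 and 543 bp, and 342 bp in cKO replicate 1, with quartiles of 252 and 485 bp. In regions called in all 4 lists the medians in the same libraries were 790 and 751 bp. Regions that only control replicate 2 called were narrower still, with a median of 225 bp. The edge of the rule was seldom close. The smallest gap from a long-list-only region to a short-list peak was 39 bp, 2 regions had such a peak within 100 bp, and 647 (1.98%) had one within 500 bp. Just outside the rule, 3 of the 51320 regions in both long lists and at least 1 short list owed this to a short-list peak sharing 10 bp or less.

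They were spread over the genome among other open regions. On each chromosome they made up between 26.7% (chromosome 4) and 30.4% (chromosome 14) of merged regions. The median gap to the nearest region called in all 4 lists was 20208 bp, with quartiles of 8319 and 48389 bp, and 29.6% had one within 10 kb. This median was 12181 bp with control replicate 1 left out, where more regions count as called in all remaining lists, and 48527 bp when peaks under 300 bp were dropped. An H3K27ac peak of either library lay within 10 kb of 59.3% of them, which counts the 29.5% that met such a peak. The same share is not given for other regions, so it shows no particular closeness to H3K27ac. Neither neighbour in the order along the chromosome was of the same kind for 48.7% of long-list-only regions, and 1283 stood in runs of 5 or more. The longest runs had 10 in a row. One spanned 93871583 to 93978753 on chromosome 1 around Gal3st2 and Gal3st2b, which encode galactose-3-O-sulfotransferases, with H3K27ac at 1 of the 10 and H3K27me3 at 1. The other spanned 151614474 to 151696333 on chromosome 4 inside Camta1, a calmodulin-binding transcription activator, with H3K27ac at 1 and H3K27me3 at 5. Of all long-list-only regions 13.8% met H3K27me3 in either library.

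Long-list-only regions lay farther from transcription starts than regions called in all 4 lists. Within 1 kb of a start of a protein-coding gene were 1852 of them, 5.68% (5.43 to 5.94), against 35.5% (35.0 to 36.0) of regions called in all 4 lists and 13.9% of all merged regions. Brackets give 95% intervals by the exact Clopper-Pearson method, for counting error alone; neighbouring regions share libraries and are not replicates. The median distance to a start was 37121 bp, against 9098 bp for regions called in all 4 lists and 28173 bp for all merged regions. Farther than 50 kb from any start were 42.7% (42.1 to 43.2), against 23.1% (22.7 to 23.6) and 37.1% of all merged regions. A protein-coding gene held 18041 of them, 55.3% (54.8 to 55.9), against 67.2% and 58.3% of all merged regions. Regions within 1 kb of a 3′ end, but not of a start, were counted for genes with a RefSeq promoter window. They were 584 long-list-only regions (1.79%) and 665 regions called in all 4 lists (2.02%). Farther than 1 kb from any start lay 30757 and 21197 regions of these kinds. Among those the share at 3′ ends was lower for long-list-only regions. Other patterns of over 1000 regions stood closer to the 5.68% of long-list-only regions near a start than regions called in all 4 lists did. Within 1 kb of a start lay 7.91% of the regions in both long lists and cKO replicate 2, 6.84% in both long lists and control replicate 1, 4.98% in cKO replicate 2 alone, 4.05% in control replicate 2 and cKO replicate 2, 3.91% in cKO replicate 1 alone and 3.72% in control replicate 2 alone. With lists of equal length the share was 13.4%, against 48.9% of regions called in all 4 lists, and within 5 kb it was 12.2% against 43.6%.

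**Figure D2:**
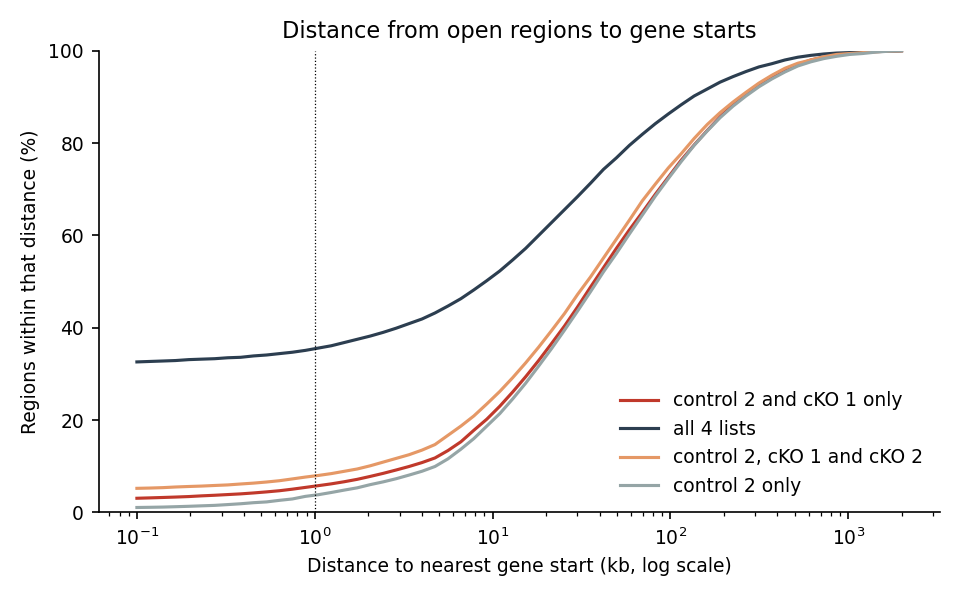
Share of regions (%) within a given distance of the nearest start of a protein-coding gene (kb, log scale), for long-list-only regions (red) and 3 other patterns. At 1 kb, the dotted line, the long-list-only curve stands at 5.68% and that of regions called in all 4 lists at 35.5%.

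H3K27ac was found at about 1 region in every 4 of this kind, and most had neither mark. The control H3K27ac list met 7874 of them, 24.1% (23.7 to 24.6), and the cKO list met 7846, 24.1% (23.6 to 24.5). Of all merged regions 36.8% met the control list and 36.5% the cKO list, and of regions called in all 4 lists 69.8% and 69.5% did. H3K27me3 was met by 12.7% (12.4 to 13.1) in the control list and 12.6% (12.3 to 13.0) in the cKO list, near the 12.4% and 12.3% of all merged regions and below the 15.1% of regions called in all 4 lists in either library. No peak of either mark in either library met 60.4% (59.9 to 61.0), against 22.3% of regions called in all 4 lists and 51.1% of all merged regions. Regions in control replicate 2 alone and in cKO replicate 1 alone had no mark in 74.5% and 73.9%, and H3K27ac of the control in 13.1% and 13.9%. Regions in both long lists and cKO replicate 2 had no mark in 45.9% and H3K27ac in 40.1%. For both long lists and control replicate 1 these shares were 58.9% and 31.1%. By bases, H3K27ac peaks of the control covered 17.5% of their sequence and H3K27me3 peaks 13.2%, against 65.3% and 10.9% in regions called in all 4 lists. When a peak had to cover at least 50% of the region, H3K27ac was met by 14.2%, against 58.7% of regions called in all 4 lists. With lists of equal length it was met by 48.8% against 86.1%, and H3K27me3 by 24.8% against 16.6%. The order for H3K27me3 also turned over with a peak over at least 50% of the region (10.6% against 9.27%). It did so too with peaks of at least 300 bp (14.9% against 13.6%), a limit that also changed which regions were of each kind.

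Along the sequence, the share of long-list-only regions with an H3K27ac peak of the control was 16.1% at the region centre and 3.33% at 5 kb before it. For regions called in all 4 lists these values were 57.6% and 5.96%. H3K27me3 was broad and single-peaked around long-list-only regions, with 10.7% at the centre, 8.9% at 2 kb after it and 6.71% at 5 kb. Around regions called in all 4 lists it dipped, with 9.01% at the centre, 11.9% at 2 kb and 8.36% at 5 kb.

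**Figure D3:**
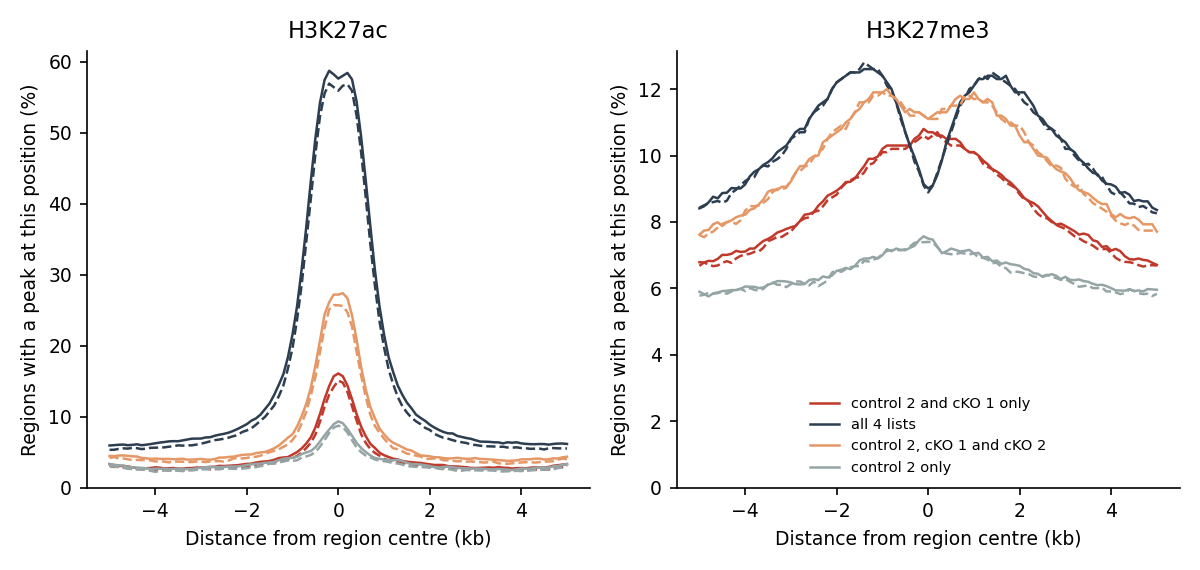
Share of regions (%) with a ChIP-seq peak at each distance from the region centre (kb), for H3K27ac (left) and H3K27me3 (right); solid lines are the control ChIP list and dashed lines the cKO list. For long-list-only regions (red), H3K27ac reaches 16.1% at the centre and H3K27me3 10.7%, without the central dip to 9.01% seen for regions called in all 4 lists.

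Near transcription starts the balance of the marks was the other way round. Of the 1852 long-list-only regions within 1 kb of a start, 59.2% met H3K27me3 in the control list and 43.3% met H3K27ac. Of the 11655 regions called in all 4 lists at such places, 20.6% and 95.1% did, and of all merged regions there 29.6% and 81.8%. In classes that count a mark in either library, 34.9% (32.8 to 37.2) of the long-list-only regions near starts had H3K27me3 alone, 25.6% had both marks, 22.3% had H3K27ac alone and 17.2% had none. The same classes held 2.3%, 19.8%, 76.0% and 1.9% of regions called in all 4 lists. Other patterns also had high shares with H3K27me3 near starts: 56.7% of the 1373 regions in both long lists and cKO replicate 2, 50.0% of the 76 in both long lists and control replicate 1, 44.9% of the 256 in cKO replicate 1 alone and 39.8% of the 831 in control replicate 2 alone. Of the 57 regions near starts in cKO replicate 2 alone, 15.8% met it. Each remaining pattern had fewer than 50 regions near starts. The share fell with distance to 20.9% between 1 and 10 kb from a start and 8.49% between 10 and 50 kb. Over the same steps H3K27ac went from 43.3% to 23.0% and 23.6%.

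**Figure D4:**
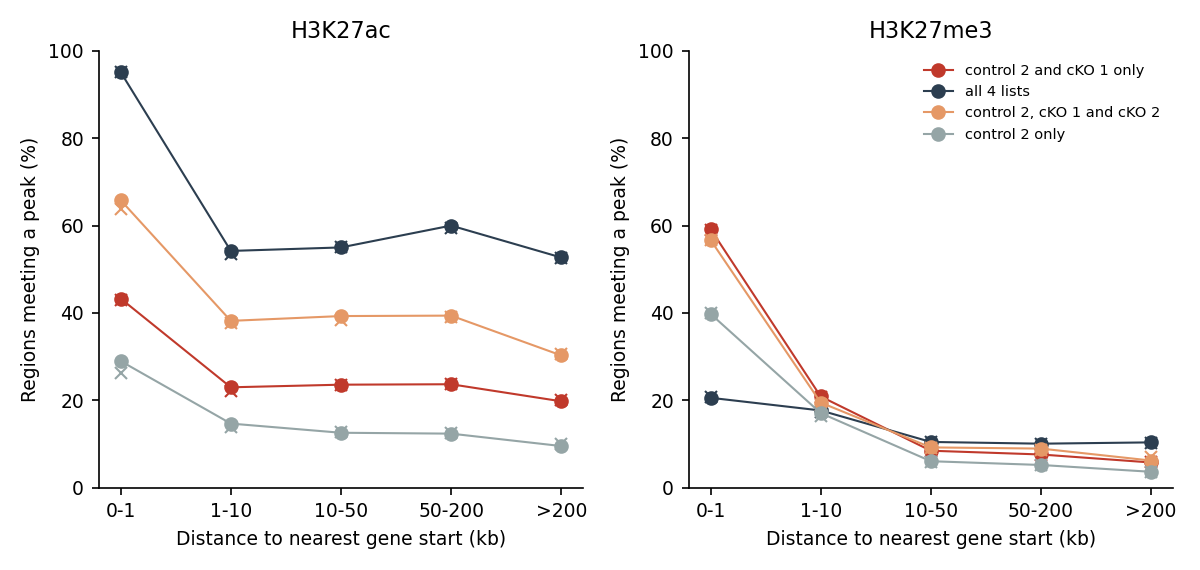
Share of regions (%) that meet a peak of H3K27ac (left) or H3K27me3 (right), by distance to the nearest transcription start (kb); circles are the control ChIP list and crosses the cKO list. Within 1 kb of a start, long-list-only regions (red) stand at 43.3% for H3K27ac and 59.2% for H3K27me3, and regions called in all 4 lists at 95.1% and 20.6%.

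The marks were also compared at like peak width, since a wider region can meet a peak more easily. Taking the narrower of the peaks in the long lists, 24.0% of long-list-only regions of 300 to 500 bp met H3K27ac in the control, against 36.9% of regions called in all 4 lists. From 500 to 800 bp the shares were 40.3% and 59.2%, and above 800 bp 57.4% and 94.8%. Within 1 kb of a start, H3K27me3 of the control was met by 52.9% of long-list-only regions of 300 to 500 bp against 23.1%, by 69.3% of those of 500 to 800 bp against 20.2%, and by 85.8% of those above 800 bp against 20.5%. The order of the 2 kinds of region was thus the same in each of these width classes. Only 254 long-list-only regions near starts were wider than 800 bp in both lists.

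Counted over all long-list-only regions, few had a mark in 1 genotype alone, and the numbers were alike each way. H3K27ac in the control list alone was found at 1768 long-list-only regions, 5.42% (5.18 to 5.67), against 4.41% of all merged regions. In the cKO list alone it was found at 1740, 5.34% (5.09 to 5.59), against 4.19%. For H3K27me3 the counts were 382 (1.17%) in the control alone, against 1.21% of all merged regions, and 356 (1.09%) in the cKO alone, against 1.13%. Of the 9614 long-list-only regions with H3K27ac in either list, 6106 had it in both. The same counts were 23777 and 22001 for regions called in all 4 lists, and 47654 and 37649 for all merged regions. Among regions with H3K27ac, a call in 1 genotype alone was thus more common at long-list-only regions. With 1 ChIP library per genotype and mark there is no replicate check of any region marked in 1 genotype alone. Among the widest ones, inside Lhx4, a LIM homeodomain gene of bipolar cells and cones, a region of 1611 bp met 861 bp of H3K27ac in the control and 0 bp in the cKO. At Ch25h, cholesterol 25-hydroxylase, 155 bp of H3K27ac were in the cKO alone, in a region of 1722 bp under H3K27me3 throughout in both libraries. When a peak had to cover at least 50% of the region, H3K27ac in 1 genotype alone fell to 6.77% of long-list-only regions, from 10.8%.

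Promoter sequence was read from the 20085 RefSeq windows of 16457 genes. A long-list-only region met a window of 759 genes (4.61%), and a region called in all 4 lists met one of 9411 genes (57.2%). With cKO replicate 2 left out the first share was 8.68%. It was 10.4% when peaks under 300 bp were dropped and 2.91% with lists of equal length. The 819 windows met by a long-list-only region and by none called in all 4 lists belonged to 746 genes. They had a median of 11 CpG, with quartiles of 6 and 20, and a median ratio of observed to expected CpG of 0.485. In the 11018 windows met by regions called in all 4 lists these medians were 23 and 0.798, and in the 7146 windows that met no region 3 and 0.184. Over all windows the medians were 14 and 0.586. The ratio was under 0.4 for 39.2% of the 819 windows, near the 38.4% of all windows, and for 7.19% of windows met by regions called in all 4 lists. H3K27me3 of the control met 63.9% of them and H3K27ac 38.5%, against 16.7% and 59.1% of all windows and 11.6% and 95.9% of windows met by regions called in all 4 lists. The 1102 windows met only by regions of other patterns were similar, with a median of 12 CpG, a ratio of 0.5 and H3K27me3 at 55.4%.

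**Figure D5:**
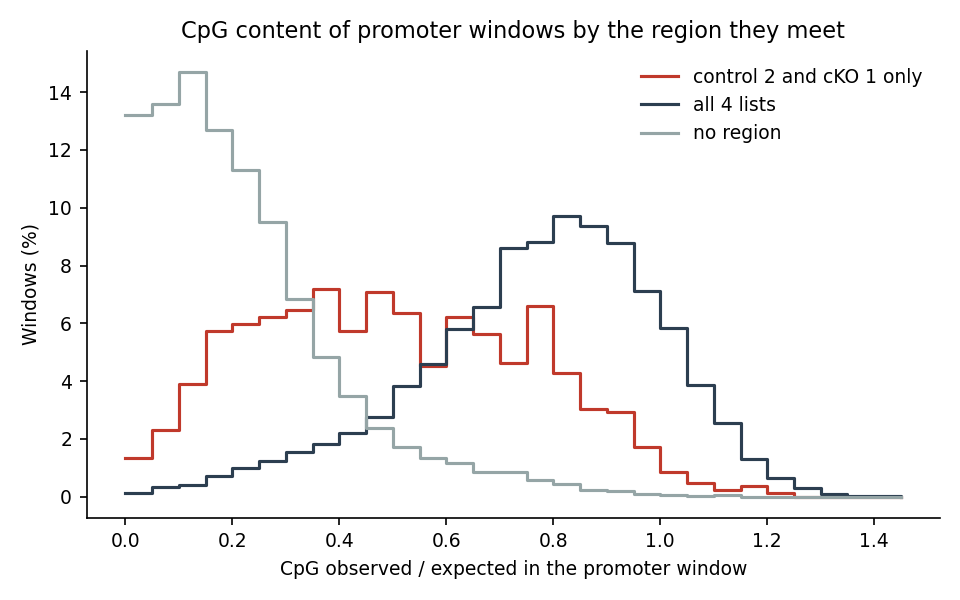
Distribution of the ratio of observed to expected CpG in RefSeq promoter windows, as a percentage of the windows of each class in bins of the ratio. Windows met by a long-list-only region and none called in all 4 lists (red, median 0.485) lie between those met by regions called in all 4 lists (median 0.798) and those that met no region (median 0.184).

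Short motifs were searched on both strands of the windows, with overlaps counted once per window. TATAAA, the TATA box, was in 9.28% of the 819 windows, against 5.59% of windows met by regions called in all 4 lists and 12.7% of all windows. GGGCGG, the core bound by Sp1, was in 51.3%, against 68.9% and 47.0%. TAATCC was in 6.72%, against 5.06% and 6.42%. CAGCTG and CAGATG, E-boxes bound by basic helix-loop-helix factors, were in 18.6% and 15.6%, against 15.6% and 14.6% of all windows. TGACTCA, the AP-1 motif, was in 4.4% and the E-box CACGTG in 7.69%, against 4.7% and 7.89%. GGGCGG holds a CpG, and its share moves with CpG content.

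By gene, 9540 of 20665 protein-coding genes (46.2%) had at least 1 long-list-only region in the gene or, outside genes, nearest to one of its ends within 50 kb. Of these, 1839 had no region called in all 4 lists. At 1141 genes (5.52%) a long-list-only region and none called in all 4 lists lay within 1 kb of a start. The starts were taken from the promoter table for 16457 genes, and both annotated ends were used for the other 4208.

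Among photoreceptor genes, 4 of 19 rod genes and 4 of 13 cone genes had a long-list-only region and none called in all 4 lists at a start, against 5.52% of all genes. At Gngt1 the region was chr6:3993708-3994099, with peaks of 293 bp in control replicate 2 and 315 bp in cKO replicate 1 and no bp of either mark. It was the only merged region assigned to that gene. Opn1sw likewise had a single region, chr6:29380406-29380742, with peaks of 337 and 207 bp and no mark over it, though an H3K27ac peak of the control touched the rest of its promoter window. Nr2e3, a nuclear receptor that represses cone genes in rods, had a region of 231 and 191 bp in the long lists, under H3K27ac over all 254 bp in both libraries. Slc24a1, the sodium, calcium and potassium exchanger of rods, had a region of 686 and 773 bp under H3K27me3 over 893 bp in both. Cnga3, the cone cyclic nucleotide-gated channel subunit, had a region of 921 and 1005 bp under H3K27me3. The cone phosphodiesterase gene Pde6c had one of 1052 and 1089 bp, with 0 bp of H3K27ac in the control and 150 bp in the cKO. Photoreceptor starts of this kind thus included ones under either mark and under none. Of the 10 photoreceptor regulators, Esrrb, an orphan nuclear receptor of rods, was the only one with this pattern at a start, and 8 had a region called in all 4 lists there.

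Bipolar genes had it at 5 of 20 starts, against 5.52% of all genes. Grm6, the glutamate receptor of ON bipolar cells, had a region of 689 and 579 bp, Tacr3, a tachykinin receptor, one of 1337 and 1325 bp, and Scgn, the calcium-binding protein secretagogin, one of 873 and 697 bp. All 3 lay under H3K27me3 throughout in both libraries and met no H3K27ac. At Grik1, a kainate receptor subunit, a region of 1496 and 1344 bp met H3K27me3 over all 1503 bp and H3K27ac over 186 bp in the control and 492 bp in the cKO. The remaining gene, Pcp2, a Purkinje cell protein also made in rod bipolar cells, had a long-list-only region at its start and no mark on it.

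Genes of earlier born neurons showed the pattern at 4 of 20 ganglion cell starts and 4 of 20 amacrine starts, and at 0 of 13 horizontal cell starts. Over all protein-coding genes the share was 5.52%. Pou4f2, a POU factor of ganglion cells, had a region of 601 and 386 bp under H3K27me3 over all 676 bp in both libraries. Slc17a6, the vesicular glutamate transporter VGLUT2, had one of 543 and 504 bp under H3K27me3 throughout, with 148 bp of H3K27ac in the control and 202 bp in the cKO. Slc18a3, the vesicular acetylcholine transporter of starburst amacrine cells, had one of 485 and 463 bp under H3K27me3 alone. Slc32a1, the vesicular transporter for GABA and glycine, had one of 587 and 642 bp under both marks over all 666 bp, and Tfap2a, an AP-2 factor of amacrine cells, had one under H3K27me3 over 594 bp with 416 and 257 bp of H3K27ac in control and cKO. Of the long-list-only regions assigned to the lists, H3K27me3 in either library met 65.5% for horizontal, 64.1% for amacrine and 48.6% for ganglion cell genes, against 14.8% over all genes. The share among other merged regions of these genes is not given here.

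No retinal progenitor gene (0 of 23) and no neurogenic progenitor gene (0 of 19) had this pattern at a start, against 5.52% of all genes, a share under which a list of this size would hold few or none. The 56 long-list-only regions assigned to retinal progenitor genes met H3K27ac in either library in 64.3%, against 30.5% over all genes. The share among other merged regions of this list, and of the lists below, is not given here. Frequent H3K27ac is therefore not shown to be particular to the long-list-only regions of these genes. Lhx2, a LIM homeodomain factor of the eye field, had 8 among its 16 merged regions, of which 5 met H3K27ac. Six3, a homeobox factor of the eye field, had 6 among 18, of which 5 met it, and Pax6 had 4 among 19, of which 4 met it. Other genes of the list had lower counts, with 1 of 5 at Hmga2 and 1 of 3 at Notch1. For early temporal identity genes 59.1% of 22 regions met H3K27ac, for photoreceptor regulators 51.0% of 49 and for Müller glia genes 48.4% of 64. Casz1 itself had 5 among 41 merged regions, of which 4 met H3K27ac, and 19 called in all 4 lists.

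Long-list-only regions at Hox genes and at genes of the non-neural regulator list mostly met H3K27me3. Of 19 Hox genes, 8 had the pattern at a start, against 5.52% of all genes. Of 92 merged regions assigned to the list, 40 (43.5%) were long-list-only, against 27.2% over all genes. H3K27me3 in either library met 97.5% of the 40, and H3K27ac met 0.0%. Over all genes these marks met 14.8% and 30.5% of long-list-only regions. Hox promoter windows that met a region called in all 4 lists, or no region, also met H3K27me3 and no H3K27ac. These marks are therefore not particular to the long-list-only regions of the Hox genes. Shares with each mark over all merged regions of a gene list are not given here. At Hoxa5 the region chr6:52203233-52204713 had peaks of 1178 and 1466 bp and lay under H3K27me3 throughout. Hoxa13 had 7 long-list-only regions among 8, all under H3K27me3, and the one at its start had peaks of 959 and 760 bp. Among non-neural regulators 5 of 20 had the pattern, against 5.52% of all genes. Of their 64 long-list-only regions 84.4% met H3K27me3 and 12.5% met H3K27ac in either library, against the same 14.8% and 30.5%. The list also holds genes used in parts of the retina, such as the dorsal factors Tbx2, Tbx3 and Tbx5. Tbx2 had 6 regions called in all 4 lists. At Tbx5 3 of the 6 long-list-only regions met H3K27ac, and all 6 met H3K27me3. Twist1, a regulator of mesoderm and neural crest, had 4 long-list-only regions among 8 and none called in all 4 lists, Pax1, a factor of the vertebral column, had 5 among 7, and Pdx1, a pancreas factor, had 2 of 2. All long-list-only regions at Twist1, Pax1 and Pdx1 met H3K27me3.

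Genes of other cell types in or near the retina were mixed. The pattern was found at 4 of 19 vascular starts, 3 of 15 pigment epithelium starts and 2 of 14 lens and cornea starts. It was found at 1 of 9 astrocyte starts and 0 of 15 microglia starts. Over all protein-coding genes the share was 5.52%. Sox17, an endothelial factor, had 3 long-list-only regions of 3, all under H3K27me3, and the one near an annotated end had peaks of 1850 and 1437 bp. Rgs5, a pericyte gene, had a region of 224 and 249 bp with no mark. Lrat, lecithin retinol acyltransferase of the visual cycle, had one of 1441 and 1337 bp under H3K27me3 throughout, and Slc45a2, a melanosome transporter, had one of 485 and 435 bp with no mark. Pdgfra, the growth factor receptor of retinal astrocytes, had 11 long-list-only regions among 19, of which 5 met H3K27ac and 2 met H3K27me3, and the one at its start lay under H3K27me3 alone.

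The genes with most long-list-only regions were long ones with many merged regions. Auts2, a neurodevelopmental gene of 1110 kb, and Camta1, of 802 kb, had 40 each, which were 37.0% and 35.7% of their merged regions. H3K27me3 in either library met 17 of those at Auts2 and 13 of those at Camta1. Over all genes H3K27me3 met 14.8% of long-list-only regions and H3K27ac met 30.5%. Lrmda and Wwox, a putative tumour suppressor with WW domains, had 34 each, Ntm, the cell adhesion molecule neurotrimin, had 33, Tenm3, a teneurin that guides retinal connections, had 31, and Asic2, an acid-sensing channel, and Rbfox3, the neuronal splicing factor NeuN, had 29 each. Nav2 had 28 and Grip1, a scaffold of glutamate receptors, had 26, of which 12 met H3K27ac and 0 met H3K27me3. All axon guidance and adhesion genes (32 of 32) had at least 1, against 46.2% of all genes, at a median length of 578 kb against 17.5 kb over all genes, and 31.1% of their merged regions were long-list-only, against 27.2% over all genes. As a share of merged regions, among genes with at least 10, the highest were Caln1, a neuronal calcium-binding protein, with 13 of 16, and En1, the engrailed homeobox gene, with 10 of 13. All 10 at En1 met H3K27me3, 2 also met H3K27ac, and En1 had 0 regions called in all 4 lists.

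The widest long-list-only regions were of several kinds. The first, ranked by the narrower of its peaks, was chr12:59035090-59038993, outside genes near Trappc6b, with peaks of 3889 and 3633 bp and no mark. The next, chr5:22444600-22448244, lay outside genes near Orc5, with peaks of 3645 and 3226 bp, and met 131 bp of H3K27ac in the control and 202 bp in the cKO. After it came the region over the Atoh1 window printed above, chr6:64727723-64730425, with peaks of 2294 and 2703 bp and H3K27me3 over all 2703 bp in both libraries. Near Calm2, a calmodulin gene, chr17:87458878-87461001 had peaks of 2071 and 2092 bp with H3K27ac over 1811 bp in the control and 1154 bp in the cKO. At Scarf2, a scavenger receptor gene, chr16:17796742-17798976 lay over the start under H3K27me3 over all 2235 bp, with 576 bp and 457 bp of H3K27ac. At Cyp27b1, the enzyme that activates vitamin D, chr10:127048408-127050432 lay inside the gene 162 bp from the start, under H3K27me3 throughout and no H3K27ac. Grem1, a secreted BMP antagonist, had chr2:113757304-113759248 over its start, under H3K27me3 over all 1945 bp with 357 and 342 bp of H3K27ac. Its promoter window had 28 CpG. Among the widest without any mark were regions inside Eif4g2, a translation initiation factor gene, 1541 bp from a start, and near Actg1, the cytoplasmic gamma actin gene, 2862 bp from a start.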

How the data were processed

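Peak lists of 8 samples were used (4 ATAC-seq, 4 ChIP-seq), and 2 input samples were not used here. Sample titles gave groups and replicate numbers. Per the submitters' processing notes the tools were Bowtie2, MACS2 and deepTools and the build mm10; no source used here gives their versions, the peak threshold, any read shift for Tn5 or how input entered. The authors deposited each peak's start and end, and a score that is 0 throughout, so the lists hold no height, p-value or read count. The depth of each library is unknown, and a longer list may come from deeper sequencing, which was not tested.

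Peaks of chromosomes 1 to 19 were merged at 1 bp overlap and compared with ChIP peaks at 1 bp overlap (python 3.11.15, numpy 2.4.6, pandas 2.3.3, scipy 1.17.1, matplotlib 3.10.9). Genes and promoter windows came from RefSeq tables of GRCm38.p6. The tables give no exons, so regions are placed as inside or outside genes. Shares carry exact intervals, and no test was run over regions, which share libraries. Counting and interval steps were tested on simulated lists. Replicates are separate sorted samples per the labels' protocols. The long-list-only regions (members) and the gene lists were chosen with earlier results of these data known. Of 416 list entries, 9 genes on other chromosomes than 1 to 19 or without a match were left out.

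Named genes and regions follow a rule: the 10 widest members by the narrower of their peaks, the 5 widest per class of marks and per mark in 1 genotype only, the 10 genes with most members and the 10 with the highest share of members among at least 10 merged regions, up to 4 genes per list with a member and no region of all 4 lists near a start, and the 10 promoters under the widest members. Lhx2, Six3, Pax6, Hmga2, Notch1, Sox2, Casz1, Pcp2, Tbx2, Tbx3, Tbx5 and the genes of the longest runs were named outside it, some after their values were seen. Some items that the rule took are not reported here. Alternatives were other merging, width, overlap and distance limits, lists cut to equal length by width, chromosome X, and each ATAC library left out in turn.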

Additional observations from a re-analysis of the deposited data

How the results depend on the processing

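The lists hold no scores, so stricter thresholds were replaced by peak width. No paired analysis was possible because no result comes from a test. Equal list lengths gave 6194 regions, with 13.4% near a start, 59.8% inside genes, 48.8% with H3K27ac, 24.8% with H3K27me3, 13.4% with H3K27ac in 1 genotype only, a median of 28058 bp to a region called in all lists, 2.91% of genes by promoter and 75.8% with H3K27me3 near starts. Peaks of at least 300 bp gave 41303 regions, with 8.46%, 35.7%, 14.9%, 48527 bp, 10.4% and 54.0% for near a start, H3K27ac, H3K27me3, distance, promoters and H3K27me3 near starts. The short lists have median peak widths of 210 and 238 bp, so this limit removed most of their peaks. Both kinds of region then differed from those as reported. Of regions called in all 4 lists, 66.1% lay near a start under it, against 35.5% as reported. Merging within 500 bp gave 4.6% near a start, 23.0% with H3K27ac, 11.7% with H3K27me3, 21109 bp and 4.25% of promoters. A peak over 50% of the region gave 14.2% for H3K27ac, 10.6% for H3K27me3, 6.77% for 1 genotype only and 55.5% for H3K27me3 near starts, and a peak within 500 bp gave 27.7%, 15%, 11.2% and 61.6%. A 5 kb limit gave 12.2% near a start, chromosome X 13.2% with H3K27me3, and a region over 50% of the window 3.43% of genes. Chosen after seeing the data, both ends of every gene gave 6.65% near a start and 48.9% of these with H3K27me3, and genes of the promoter table alone gave 61.8%; regions called in all 4 lists near starts had H3K27me3 in 12.8% to 25.6% under the same alternatives. The order of H3K27ac, of distance to starts and of H3K27me3 near starts between the kinds of region was the same under all of these, while that of H3K27me3 over all regions turned over with peaks of at least 300 bp (14.9% against 13.6%), equal lists (24.8% against 16.6%) and 50% coverage (10.6% against 9.27%).

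Leaving out 1 ATAC library gave from 33720 to 55535 regions, from 4.99% to 6.45% near a start, from 55.2% to 55.3% inside genes, from 19.5% to 29.7% with H3K27ac, from 11.1% to 13.3% with H3K27me3, from 9.68% to 10.9% with H3K27ac in 1 genotype only, from 12181 to 20079 bp, from 4.67% to 8.68% of promoters and from 53.2% to 58.9% with H3K27me3 near starts. The count with cKO replicate 1 left out (55535) or cKO replicate 2 (49965), the promoter share without cKO replicate 2 (8.68%) and the distance without control replicate 1 (12181 bp) moved by over 1.5 times. Each such merge drops a condition of the rule. Depth is unknown, and a region missing from a short list is not shown to be closed.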
